A study of Bos taurus with 81 samples.

Results

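The germinal vesicle (GV) oocyte of the cow carried 39905 autosomal regions in which peaks of H3K4me3, a histone mark of promoters, overlapped peaks of H3K27me3, the mark laid down by Polycomb repressive complex 2. A region was a contiguous stretch of at least 500 bp, on chromosomes 1 to 29, that was covered by a peak in both H3K4me3 libraries and both H3K27me3 libraries of the oocyte. The regions held 39.0 Mb, or 1.57% of the autosomes, out of 4706380 autosomal peaks in the 81 deposited peak lists. They had a median width of 800 bp, with quartiles of 600 and 1150 bp and a maximum of 7600 bp. Since the oocyte peaks of these 2 marks chose the regions, their presence in the oocyte is a description and was not tested. Of all autosomal 1 kb windows, H3K4me3 peaks covered at least 50% in both libraries in 4.79%, and H3K27me3 peaks in 7.28%.

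The study profiled H3K4me3, H3K27ac, H3K27me3 and H3K9me3 by CUT&Tag, in which an antibody brings a transposase to the mark, with 2 libraries per mark and group. It also profiled open chromatin by ATAC-seq with 3 libraries per group in the blastocyst groups. GV oocytes were taken before maturation in vitro, from ovaries obtained at slaughter. Embryos were produced by fertilization in vitro and collected at 32 h after insemination (2-cell, 2C), 44 h (4-cell, 4C), 56 h (8-cell, 8C), 122 h (morula, MO) and 172 h (blastocyst, BL). The inner cell mass (ICM) was isolated from blastocysts by immunosurgery, and the trophectoderm (TE) was cut off with a micro scalpel. Whole blastocysts hold both lineages. A further 8-cell group (8A) was collected at 56 h after culture with 50 μg/ml α-amanitin, an inhibitor of RNA polymerase II. About 500 oocytes or 1000 to 1500 blastomeres were pooled per library, and the labels do not say whether libraries of a group came from separate collections. The p-values below therefore measure the spread between libraries, which may be technical.

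Overlap of H3K4me3 and H3K27me3 is called bivalent chromatin and is best known from promoters of developmental genes in embryonic stem cells, where it marks silent genes that can still be activated. H3K4me3 is deposited by SET1 and MLL complexes, and in oocytes of some mammals it also spreads over wide stretches away from active promoters. H3K27ac occupies the same lysine as H3K27me3 and marks active promoters and enhancers, and H3K9me3 marks heterochromatin. Peaks from pooled cells show overlap of positions and not that both marks sit on the same nucleosome or in the same cell. Gene annotation and sequence of the build of the peaks were not used here, so the regions are given by position, and lineage marker genes were not checked.

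Sequencing depth was unknown, because the lists give no library totals. The lists held 7654 to 178845 autosomal peaks each. H3K4me3 lists covered 1.51% to 7.08% of the autosomes and H3K27me3 lists 4.42% to 11.3%. H3K27me3 and H3K9me3 peaks lay on a 200 bp grid and the other peaks on a 50 bp grid. Coverage of the regions is therefore given beside that of the autosomes, or beside all 2488055 autosomal windows of 1 kb, treated in the same way.

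Most of the regions were short H3K4me3 peaks inside longer Polycomb domains. Of the 39905 regions, 37197 (93.2%) were whole stretches of common H3K4me3 that ended inside the H3K27me3 domain. The regions made up 34.8% of the length that both oocyte H3K4me3 libraries covered and 21.6% of the length that both H3K27me3 libraries covered. They fell in 13139 of the 21776 common H3K27me3 stretches, with a median of 2 regions per occupied stretch. Stretches with at least 5 regions held 48.1% of all regions. The fullest, 111.8 kb at chr22:58703401-58815200 (ARS-UCD1.2), held 48. The median gap to the next region was 1850 bp. The regions leaned towards chromosome ends: 17.5% of them lay within 2 Mb of an end, in a portion of 4.66% of the autosomes. Their density ran from 6.98 per Mb on chromosome 7 to 33.9 per Mb on chromosome 29.

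H3K4me3 was retained over most of the region bases through the first cleavages and was nearly gone from the morula on. It covered 74.3% and 71.9% of the region bases in the 2 libraries at 2C, 64.4% and 70.9% at 4C, and 43.1% and 64.6% at 8C. At MO it covered 9.05% and 9.44%, at BL 7.35% and 8.39%, in ICM 5.71% and 5.95%, and in TE 8.53% and 7.43%. Every library up to 8C lay above every library from MO on, and the 8C replicates stood far apart. The 7 groups differed (permutation test with 100000 resamples, adjusted p = 0.000325). They also differed in the log2 ratio of region coverage to autosomal coverage, whose group means ran from 1.93 to 4.04 (permutation test, adjusted p = 0.0001).

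The same order appeared region by region. A region was called marked in a group where peaks covered at least 50% of its bases in every library of that group. H3K4me3 marked 25382 regions (63.6%) at 2C, against 3.44% of autosomal windows. It marked 57.8% at 4C (windows 3.04%), 37.2% at 8C (windows 2.54%), 7.16% at MO (windows 1.65%) and 6.05% at BL (windows 1.73%). In ICM it marked 4.31% (windows 1.37%), and in TE 6.06% (windows 1.64%). By the BL libraries 89.9% of the regions had no base under an H3K4me3 peak in either library. Windows without such a base were not counted, and the BL lists covered only 1.86% and 2.03% of the autosomes. The 8C value rests on replicate 1, since without it 61.8% of regions were marked. With all lists of the mark trimmed to the same covered length by dropping the lowest-scored peaks, a step that favours wide peaks, H3K4me3 marked 18.99% at 2C, 18.7% at 4C, 13.6% at 8C and 5.31% at MO.

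H3K27me3 took the opposite course: it was lost from most regions by the 2-cell stage and was present over most of them from the morula. Its peaks covered 20.9% and 24.7% of the region bases at 2C, 26.5% and 24.2% at 4C, and 26.3% and 26.2% at 8C. They covered 73.3% and 71.7% at MO, 83.5% and 83.3% at BL, 79.5% and 77.7% in ICM, and 82.2% and 82.1% in TE. The lowest library from MO on stood 45.2 points above the highest library of the cleavage stages, and the replicates of each group lay close together. The 7 groups differed (permutation test, adjusted p = 8.33e-05), as they did relative to autosomal coverage (permutation test, adjusted p = 0.000175).

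H3K27me3 marked 17.3% of regions at 2C (windows 3.41%), 18.9% at 4C (windows 4.56%) and 20.2% at 8C (windows 4.31%). It then marked 26223 regions (65.7%) at MO (windows 5.26%) and 31593 (79.2%) at BL (windows 9.66%). In ICM it marked 74.1% (windows 8.58%), and in TE 78.2% (windows 9.62%). In the trimmed lists the later shares were lower, at 54.0% for MO, 45.8% for BL, 44.7% for ICM and 45.3% for TE, all still above the trimmed cleavage values of 14.02% to 16.6%.

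**Figure D1:**
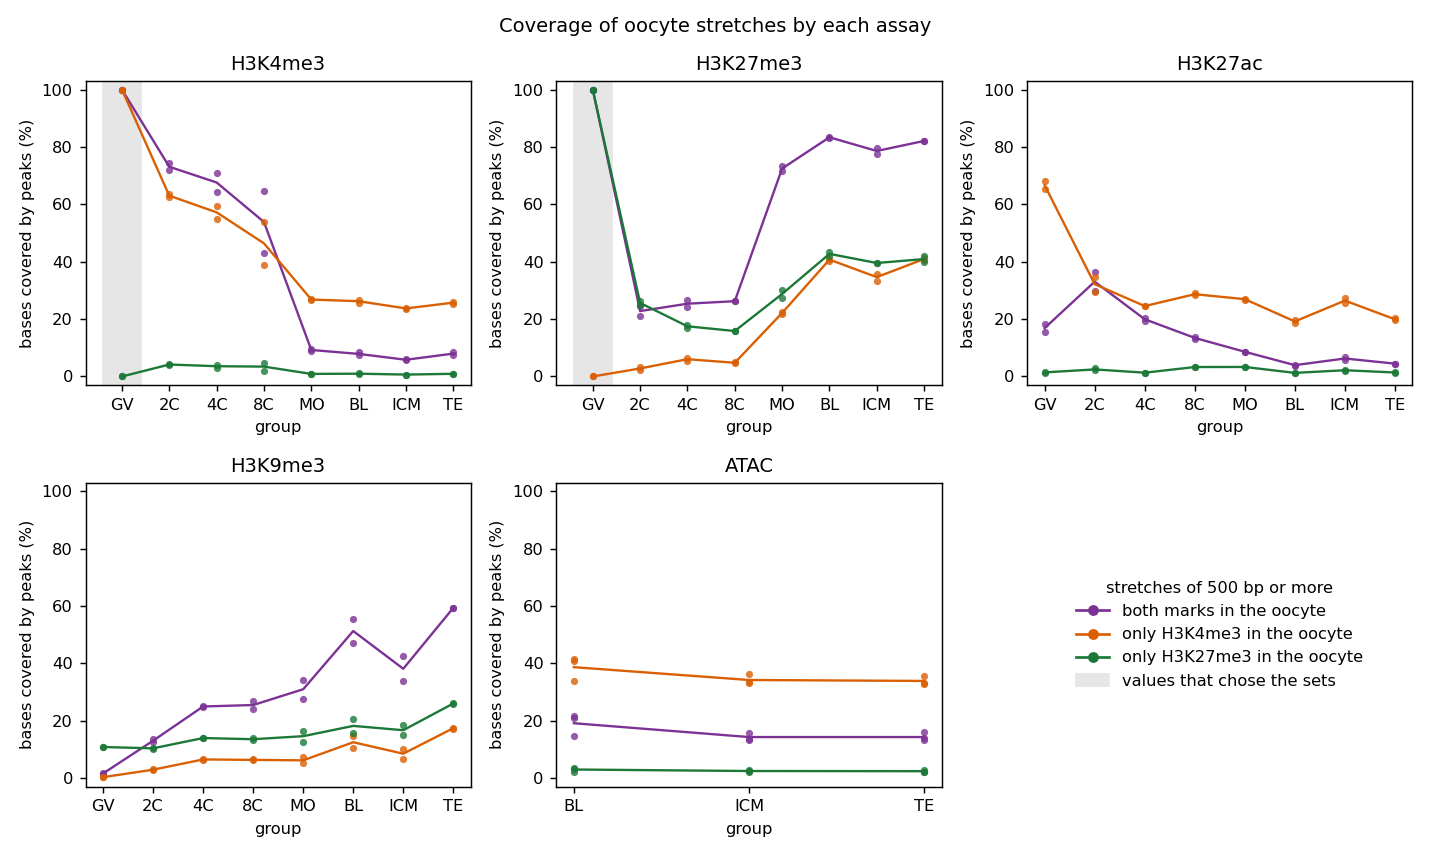
Share of bases under peaks (%) in each library, by assay and group, for the regions with both marks in the oocyte (purple) and for stretches with only H3K4me3 (orange) or only H3K27me3 (green) there; points are libraries, lines join group means, and grey marks the oocyte values that chose the sets. In the purple set H3K4me3 fell from 74.3% and 71.9% at 2C to 9.05% and 9.44% at MO, while H3K27me3 rose from 26.3% and 26.2% at 8C to 73.3% and 71.7% at MO.

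The mark that covered more of the region bases thus depended on the stage. Averaged over 2C, 4C and 8C, H3K4me3 covered 40.1 percentage points more of the region bases than H3K27me3 (exact permutation test within stages, two-sided, p = 0.00926, the smallest the design allows). Averaged over MO, BL, ICM and TE it covered 71.4 points less: the mean difference was -71.4 (exact permutation test, p = 0.00154, adjusted p = 0.00309). In lists trimmed to the same length per mark, the cleavage difference was 9.52 points and the later difference -48.3 points. Trimmed lists still differed between the marks, covering 1.51% of the autosomes for H3K4me3 and 4.42% for H3K27me3. Untrimmed lists from MO on covered 1.51% to 2.03% for H3K4me3 and 6.01% to 11.3% for H3K27me3. Neither comparison is therefore corrected for list length between the marks.

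Each region was then placed in a state from both marks where the libraries of a group gave the same call. Shares are of all 39905 regions, those with differing replicates included. At 2C, H3K4me3 alone marked 19368 regions (48.5%, windows 2.98%) and both marks 9.97% (windows 0.291%). H3K27me3 alone marked 3.95% (windows 2.96%) and neither 10.4% (windows 88.4%). At 8C, H3K4me3 alone marked 26.97% (windows 2.16%) and both marks 7.66% (windows 0.272%). H3K27me3 alone marked 7.17% (windows 3.78%) and neither 26.3% (windows 89%). At BL, H3K27me3 alone marked 29834 regions (74.8%, windows 9.42%) and H3K4me3 alone 2.39% (windows 1.51%). Both marks held 3.30% (windows 0.176%) and neither 13.5% (windows 85.6%). Joint marking therefore held for 7.66% to 10.4% of the regions during cleavage (windows 0.356% at 4C, where it was commonest). From MO on it held for 2.13% to 3.88% of the regions (windows 0.119% to 0.176%). Replicates gave different calls for 27.1% of regions at 2C, 31.9% at 8C and 6.04% at BL. Differing calls thus lower the shares of the states more at 2C and 8C than at BL.

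**Figure D2:**
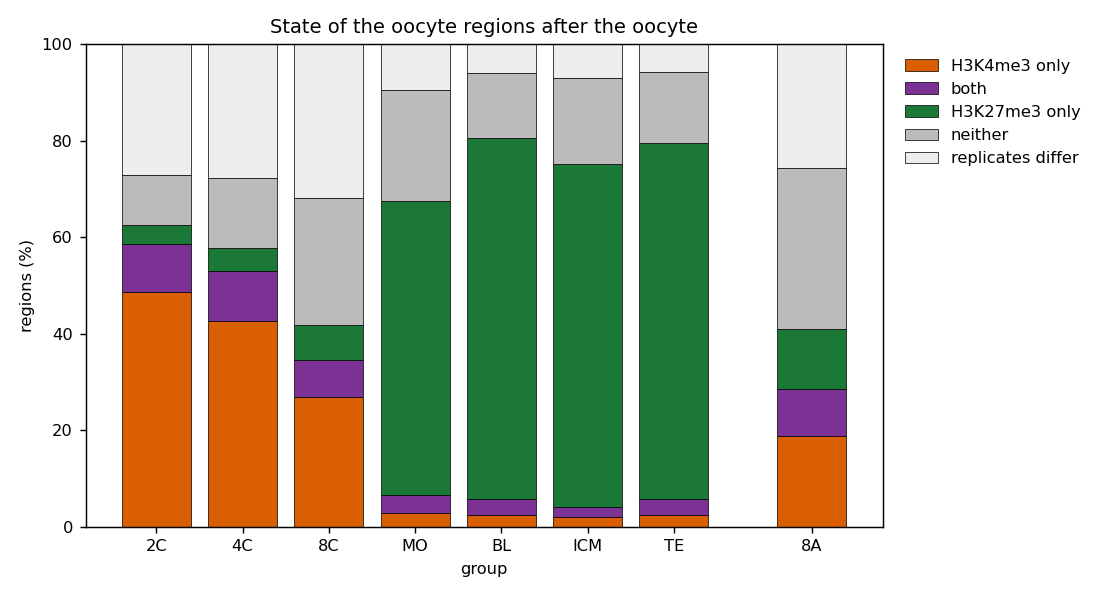
Percentage of the 39905 regions in each state after the oocyte, by group; a state needs the same call in every library, and the palest band holds regions whose replicates differ. H3K4me3 alone held 48.5% of regions at 2C and 2.80% at MO, while H3K27me3 alone held 3.95% at 2C and 60.8% at MO.

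Regions that kept H3K4me3 alone at 2C were mostly Polycomb-marked later. Of those 19368 regions, 14197 (73.3%) carried H3K27me3 alone at BL, 1203 (6.21%) both marks, 778 (4.02%) H3K4me3 alone and 1891 (9.76%) neither. Among the 74097 windows with H3K4me3 alone at 2C, 49.2% had H3K27me3 alone at BL, 4.89% both marks and 22.7% H3K4me3 alone. The 14197 made up 35.6% of all regions, against 1.46% of windows. Of the 3978 regions with both marks at 2C, 90.05% had H3K27me3 alone at BL (84.7% of such windows). Of the 4150 regions with neither mark at 2C, 62.9% had H3K27me3 alone at BL (5.72% of such windows). The step fell between 8C and MO. Of 10761 regions with H3K4me3 alone at 8C, 56.2% had H3K27me3 alone at MO (25.3% of such windows), 12.3% both marks (windows 6.73%) and 8.17% H3K4me3 alone (windows 40.8%). In all, H3K4me3 alone held 2.80% of the regions at MO (windows 1.43%). From BL to the separated lineages the states mostly stayed: of the regions with H3K27me3 alone at BL, 90.4% had the same state in ICM (windows 74.8%) and 94.9% in TE (windows 85.9%). All 3 groups were made from blastocysts.

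Strict courses over all 7 later groups were less common. In 4088 regions (10.2%, windows 0.305%), H3K4me3 was marked without H3K27me3 in all 3 cleavage groups and H3K27me3 without H3K4me3 in all 4 later groups. H3K27me3 was unmarked throughout cleavage and marked in all 4 later groups in 13168 regions (33.0%, windows 2.49%). It was marked in all 7 groups in 3652 regions (9.15%, windows 0.413%). H3K4me3 was marked in all 7 groups in 1223 regions (3.06%, windows 0.6%). H3K4me3 was unmarked in cleavage and marked in all 4 later groups in only 4 regions (0.0100%, windows 0.0906%). Both marks were marked in all 7 groups in 22 regions (0.0551%, windows 0.00169%), and 15 of these were marked in all 81 lists, of every assay. Among all windows, 29 (0.00117%) were marked in all 81 lists.

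The regions were next set against oocyte stretches of at least 500 bp with only one of the marks, meaning no base under a peak of the other mark in either oocyte library. There were 52650 such stretches with H3K4me3 (46.1 Mb, median 750 bp) and 44660 with H3K27me3 (100.1 Mb, median 1400 bp). Relative to the stretches with H3K4me3 alone, the regions held more H3K4me3 during cleavage and less afterwards. H3K4me3 covered 64.9% of region bases and 55.6% of the bases of those stretches over the 6 cleavage libraries, a difference of 9.31 points that was above 0 in 6 of 6 libraries (exact sign-change permutation test, p = 0.0312, which no arrangement can undercut, and adjusted p = 0.0352 over 18 tests). In the trimmed lists this difference was 6.87 points with an adjusted p of 0.0703. Over the 8 later libraries it covered 7.73% against 25.6%, a difference of -17.9 points that was below 0 in 8 of 8 libraries (exact permutation test, adjusted p = 0.0141).

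From MO on, H3K27me3 covered more of the regions than of the stretches that had carried it alone in the oocyte. Over the 8 later libraries its peaks covered 79.2% of region bases and 38.0% of the bases of those stretches, a difference of 41.2 points in 8 of 8 libraries (exact permutation test, adjusted p = 0.0141). During cleavage the coverage was 24.8% against 19.7%, and the difference of 5.15 points was above 0 in 4 libraries and below 0 in the 2 of 2C (exact permutation test, adjusted p = 0.125). The stretches with H3K4me3 alone reached 34.6% H3K27me3 coverage in the later libraries, 44.5 points below the regions (lower in 8 of 8 libraries, exact permutation test, adjusted p = 0.0141).

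Around the region centres, H3K4me3 formed a narrow peak and H3K27me3 a broad one. Averaged over the 2 libraries, H3K4me3 covered the centre of 72.5% of regions at 2C and a point 2.5 kb downstream in chromosome coordinates in 34.7%. At MO the values were 8.17% and 3.50%. H3K27me3 at MO covered the centre of 69.5% of regions, a point 2.5 kb away in 60.05% and a point 10 kb away in 48.0%. At 2C its values were 21.6%, 17.8% and 15.4%. H3K9me3 in TE covered 57.7% of centres and 42.4% of points 10 kb away.

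**Figure D3:**
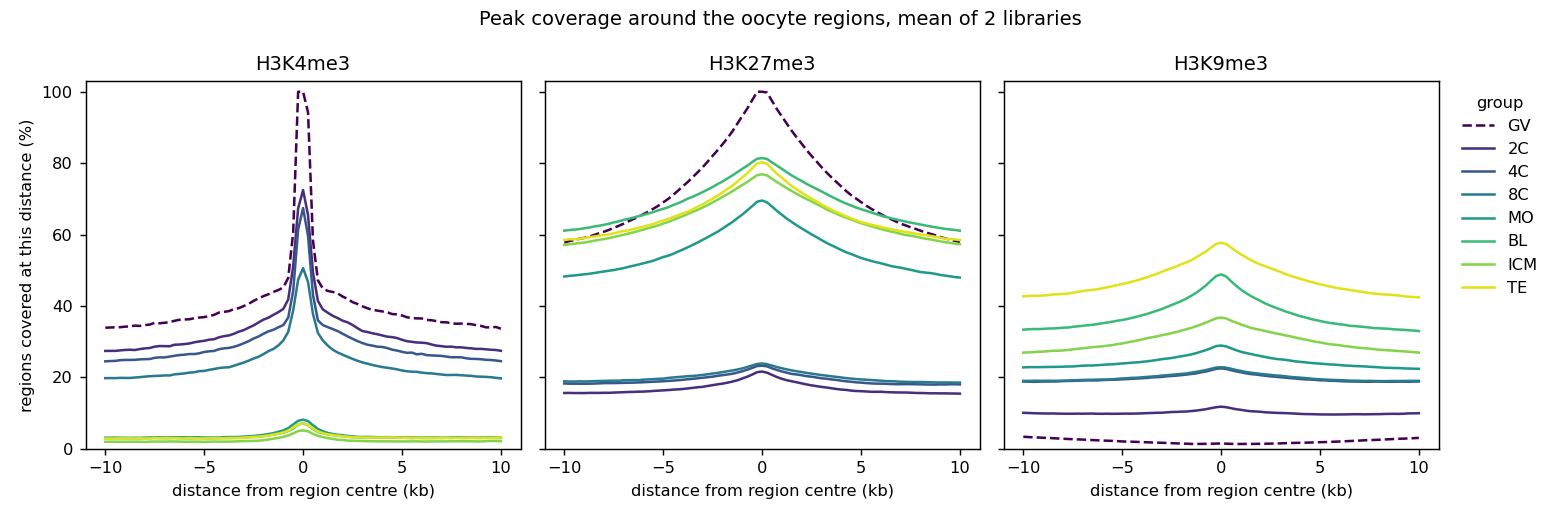
Percentage of the regions whose centre, or a point at the given distance from it (kb), lies under a peak, as the mean of 2 libraries per group; panels are marks, line colours are groups, and the dashed oocyte lines show the values that chose the regions for H3K4me3 and H3K27me3. At 2C the H3K4me3 line falls from 72.5% at the centre to 34.7% at 2.5 kb, and at MO the H3K27me3 line falls from 69.5% to 60.05% over the same distance.

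H3K27ac was sparse over the regions in the oocyte, widest at 2C, and nearly absent in the blastocyst. It covered 15.5% and 18.3% of region bases in the GV libraries, against 65.2% and 68.1% of the bases of stretches with only H3K4me3 in the oocyte. At 2C it covered 29.6% and 36.5%, at 4C 19.5% and 20.4%, at 8C 13.9% and 13.03%, and at MO 8.69% and 8.53%. It covered 3.73% and 4.17% at BL, 6.76% and 5.78% in ICM, and 4.47% and 4.49% in TE. Both 2C libraries were the highest of the untreated groups and both BL libraries the lowest, although in trimmed lists coverage was lowest in ICM, at 2.51% to 2.70%, against 3.30% to 3.31% at BL. The 7 later groups differed (permutation test, adjusted p = 5e-05), and relative to autosomal coverage as well (permutation test, adjusted p = 0.000175).

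H3K27ac marked 10.7% of regions at GV (windows 4.08%), 19.1% at 2C (windows 1.2%), 12.1% at 4C (windows 0.597%) and 9.74% at 8C (windows 2.56%). It marked 6.81% at MO (windows 3.54%), 3.17% at BL (windows 1.71%), 4.75% in ICM (windows 3.21%) and 3.35% in TE (windows 1.89%). Replicate calls differed most before 8C: without replicate 1 the marked share was 18.7% at GV, 35.8% at 2C and 20.5% at 4C, without replicate 2 it was 29.2% at 2C and 19.2% at 4C, and without oocyte H3K4me3 replicate 1 in choosing regions it was 7.84% at 4C. In trimmed lists H3K27ac marked 5.21% at 8C, 2.57% at MO and 1.99% in ICM. Of the regions, 4996 (12.5%, windows 0.523%) were unmarked at GV and marked at 2C. Over the later libraries, H3K27ac covered 5.83% of region bases and 23.1% of stretches with only H3K4me3, lower by 17.3 points in the regions in 8 of 8 libraries (difference -17.3, exact permutation test, adjusted p = 0.0141). During cleavage the difference was -6.32 points, lower in 4 libraries and higher in the 2 of 2C (exact permutation test, adjusted p = 0.125).

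H3K9me3 began below the autosomal level and spread over the regions as development went on. It covered 1.45% and 1.805% of region bases at GV, where it covered 7.54% and 7.47% of the autosomes. It then covered 12.6% and 13.5% at 2C, 25.3% and 24.7% at 4C, 26.9% and 24.1% at 8C, and 27.7% and 34.3% at MO. It reached 47.1% and 55.5% at BL, 33.7% and 42.6% in ICM, and 59.4% and 59.3% in TE. Both TE libraries lay above every other library, but not relative to list length: region coverage was 9.65 and 9.57 times the autosomal coverage in TE and 11.7 and 10.3 times at BL, and in trimmed lists it was 45.4% to 45.5% in TE and 46.04% to 46.1% at BL. The replicates at MO, BL and ICM differed by 6.64 to 8.84 points. The 7 later groups differed (permutation test, adjusted p = 7.5e-05), and relative to autosomal coverage as well (permutation test, adjusted p = 5e-05).

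H3K9me3 marked 1.13% of regions at GV (windows 5.82%), 8.87% at 2C (windows 3.75%), 19.1% at 4C (windows 5.39%) and 19.5% at 8C (windows 5.42%). It marked 24.4% at MO (windows 3.99%), 42.0% at BL (windows 3.45%), 29.6% in ICM (windows 3.11%) and 21134 regions (53.0%) in TE (windows 4.89%). In the trimmed lists it marked 10.1% at 4C and 11.1% at 8C, compared with 38.9% in TE and 37.5% at BL. Over the later libraries it covered 45.0% of region bases and 18.9% of stretches with only H3K27me3 in the oocyte, a difference of 26.0 points in 8 of 8 libraries (exact permutation test, adjusted p = 0.0141). Against stretches with only H3K4me3, at 11.2%, the difference was 33.8 points, also in 8 of 8 libraries (exact permutation test, adjusted p = 0.0141).

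From MO on, nearly all regions marked by H3K9me3 were also marked by H3K27me3. Of regions with H3K9me3, 96.1% also carried H3K27me3 in morulae and 97.2% in whole blastocysts, as did 95.8% in ICM and 96.3% in TE. Among H3K9me3-marked windows the share was 41.5% for morulae, 74.6% for whole blastocysts, 59.4% for ICM and 79.3% for TE. In cleavage the share of regions was lower, at 85.5% at 2C, 79.5% at 4C and 83.6% at 8C (windows 54.4%, 70.2% and 68.8%). However, H3K27me3 marked only 17.3% to 20.2% of all regions in cleavage, against 65.7% to 79.2% from MO on. Relative to those shares, the overlap was larger in cleavage. Of regions with H3K27me3, 43.9% at 2C, 80.5% at 4C and 80.6% at 8C carried H3K9me3 (windows 59.8%, 82.9% and 86.5%). From MO on, 35.7% to 65.2% did (windows 21.6% to 40.4%). Both marks lay on 20346 regions (51.0%, windows 3.88%) in TE and on 16297 (40.8%, windows 2.57%) at BL. H3K27me3 and H3K9me3 lists share the 200 bp grid and wide peaks, and the part of that in the overlap was not tested.

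Open chromatin was measured in the blastocyst groups only. ATAC peaks covered 14.7%, 21.1% and 21.7% of region bases in the 3 BL libraries, 13.8%, 15.8% and 13.4% in ICM, and 13.9%, 15.9% and 13.2% in TE. The first BL library lay within the range of ICM and TE, and the other 2 lay above it. The groups did not pass the threshold in covered percent (exact permutation test, adjusted p = 0.107), though without BL replicate 1 the adjusted p was 0.0357 and in trimmed lists 0.0214. Relative to autosomal coverage they differed, with group means of the log2 ratio from 2.02 to 2.24 (exact permutation test, adjusted p = 0.0143). ATAC peaks marked 12.2% of regions at BL (windows 2.35%), 9.88% in ICM (windows 2.21%) and 9.58% in TE (windows 2.31%). With any covered base counted as marked, the shares were 19.5%, 16.4% and 15.4%. Stretches with only H3K4me3 in the oocyte were more open: 35.6% of their bases were covered against 15.9% in the regions, a difference of -19.7 points in 9 of 9 libraries (exact permutation test, adjusted p = 0.0141). The regions were 13.3 points above stretches with only H3K27me3, also in 9 of 9 libraries (exact permutation test, adjusted p = 0.0141).

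Most of the few regions that carried H3K4me3 in the blastocyst groups were open, whether or not H3K27me3 was present. At BL, ATAC peaks marked 82.3% of the 954 regions with H3K4me3 alone, 87.5% of the 1316 with both marks, 5.40% of the 29834 with H3K27me3 alone and 11.5% of the 5392 with neither. Open regions were found in every state. Of the 4872 ATAC-marked regions at BL, 1936 (39.7%) were in the states with H3K4me3, 1612 (33.1%) had H3K27me3 alone and 620 (12.7%) neither. In the other 704 (14.4%) the replicates differed. The share in the states with H3K4me3 was 35.5% in ICM and 46.4% in TE, where replicates differed for 15.3% and 15.4%. H3K27ac separated the first 2 states: it marked 62.9% of regions with H3K4me3 alone, 8.89% of those with both marks and 0.198% of those with H3K27me3 alone. H3K9me3 marked 2.20%, 27.1% and 53.0% of them. In ICM, ATAC marked 87.2%, 83.5% and 3.84% of these states, H3K27ac 78.4%, 14.6% and 0.342%, and H3K9me3 0.253%, 14.8% and 39.1%. In TE the ATAC shares were 82.5%, 73.1% and 2.82%, those of H3K27ac 63.6%, 4.96% and 0.136%, and those of H3K9me3 0.695%, 19.5% and 67.8%. These are counts of regions, which neighbour each other on the chromosomes, and no test was run on them. Windows in the same states were not counted for these assays, so the shares are not shown to be particular to the regions.

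**Figure D4:**
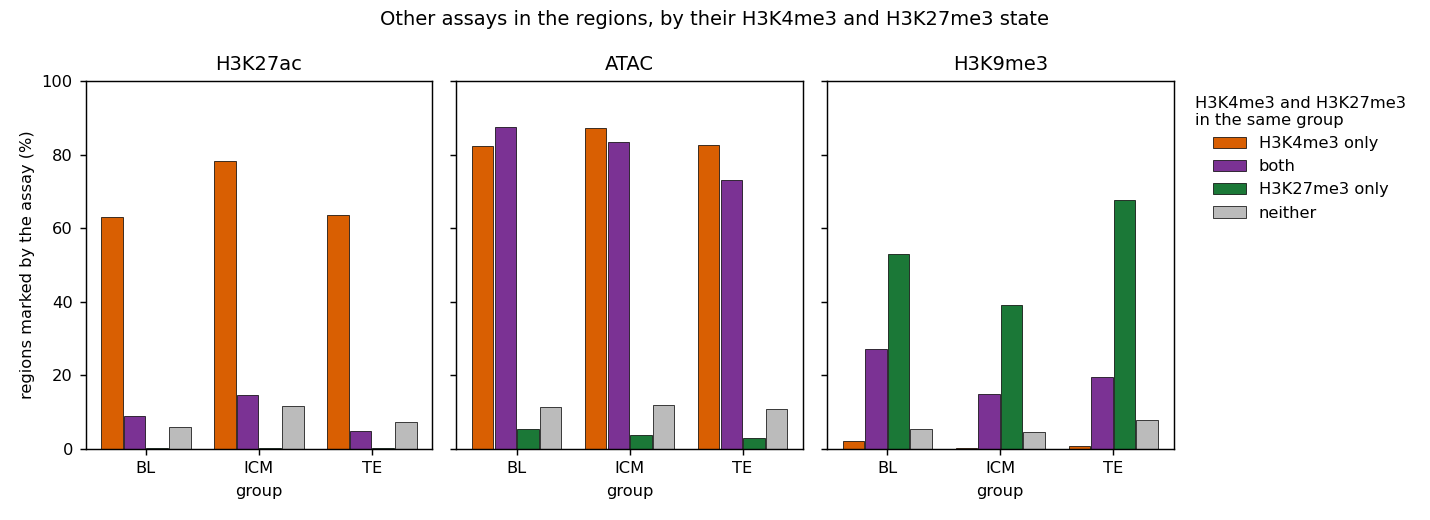
Percentage of regions marked by H3K27ac, ATAC and H3K9me3 in BL, ICM and TE, split by the H3K4me3 and H3K27me3 state of the region in the same group; each bar is a share of regions called in every library. At BL, ATAC marked 87.5% of regions with both marks and 82.3% of those with H3K4me3 alone, whereas H3K27ac marked 8.89% and 62.9%.

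ICM and TE differed most in H3K9me3. It marked 5759 regions (14.4%, windows 1.86%) in TE that were unmarked in ICM, and 410 (1.03%, windows 0.841%) the other way. H3K27me3 marked 2039 regions (5.11%, windows 1.88%) in TE only and 1122 (2.81%, windows 1.12%) in ICM only. H3K4me3 marked 607 (1.52%, windows 0.287%) in TE only and 117 (0.293%, windows 0.091%) in ICM only. H3K27ac calls went the other way, with 899 (2.25%, windows 1.53%) in ICM only and 413 (1.03%, windows 0.447%) in TE only. ATAC calls were balanced, with 520 (1.303%, windows 0.334%) in ICM only and 514 (1.29%, windows 0.42%) in TE only. With 2 libraries per group, no exact permutation test of a pair of groups can pass a threshold of 0.05, so these differences were not tested. H3K9me3 lists covered 6.16% and 6.20% of the autosomes in TE but 3.88% and 5.13% in ICM. In lists trimmed to the same length H3K9me3 still marked more regions in TE, 38.9% against 27.9%. The H3K27ac difference turned: its lists covered 3.95% and 3.67% of the autosomes in ICM and 2.31% and 2.42% in TE, and in trimmed lists it marked 1.99% of regions in ICM and 2.66% in TE. The trimmed shares in ICM and TE were 4.27% and 4.46% for H3K4me3 and 44.7% and 45.3% for H3K27me3, closer than the untrimmed ones.

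After culture with α-amanitin, the regions held more H3K27ac, H3K27me3 and H3K9me3 at the 8-cell stage in both libraries of each mark. H3K27ac covered 40.1% and 39.7% of region bases at 8A against 13.9% and 13.03% at 8C, while its lists covered 4.05% and 3.93% of the autosomes at 8A and 3.64% and 3.61% at 8C. H3K27ac marked 31.2% of regions at 8A (windows 2.65%): 7718 (19.3%, windows 1.23%) were unmarked at 8C and marked at 8A, and 386 (0.967%, windows 1.14%) the reverse. H3K27me3 covered 34.6% and 35.4% at 8A against 26.3% and 26.2% at 8C, and marked 27.8% of regions at 8A (windows 4.7%). H3K9me3 covered 35.9% and 34.7% against 26.9% and 24.1%, and marked 28.0% at 8A (windows 5.89%). Its lists covered 7.28% and 7.20% of the autosomes at 8A and 6.76% and 6.73% at 8C. H3K4me3 covered 46.3% and 41.3% against 43.1% and 64.6%, and marked 30.9% at 8A (windows 1.54%), so its 8A values fell between or below the 8C replicates. Its lists covered 2.43% and 2.10% of the autosomes at 8A and 2.76% and 4.52% at 8C, and relative to that coverage both 8A libraries lay above both 8C libraries, at 19.1 and 19.7 times against 15.6 and 14.3 times. The 8A and 8C groups of H3K27ac, H3K27me3 and H3K9me3 did not overlap in region coverage, nor in coverage of the autosomes. With 2 libraries each no exact permutation test could pass a threshold of 0.05.

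The regions also varied among themselves by width and by what else they carried in the oocyte. Wider regions held more of every mark, and of ATAC in the blastocyst groups. H3K9me3 at BL covered 40.9% and 49.8% of the bases of regions of 500 to 950 bp. In those of 2000 bp or more it covered 57.5% and 65.2%. At MO, H3K4me3 covered 5.85% and 6.19% of the bases of regions of 500 to 950 bp (n = 26078) and 14.3% and 14.6% of those of 2000 bp or more (n = 2372), and H3K27me3 covered 66.8% and 64.7% against 83.9% and 83.4%. The 4276 regions marked by H3K27ac in the oocyte kept more H3K4me3 than the 27446 with no oocyte H3K27ac: 25.9% and 26.4% against 5.57% and 5.92% at MO, and 19.4% and 21.6% against 4.76% and 5.54% at BL. They held less H3K27me3 at 8C, 15.2% and 15.1% against 31.2% and 31.0%, and ATAC covered 32.4% to 41.4% of their bases at BL against 10.6% to 17.1%. The 449 regions marked by H3K9me3 in the oocyte held H3K27me3 throughout: 92.4% and 95.8% at 2C, 90.5% and 88.3% at 8C, and 90.3% and 89.3% at BL. The excess was not limited to H3K27me3. H3K27ac covered 46.8% and 51.3% of their bases at GV, against 15.5% and 18.3% of all region bases. H3K9me3 covered 68.3% and 70.0% at 2C, against 12.6% and 13.5%. ATAC covered 27.7% to 35.9% at BL, against 14.7% to 21.7%. Regions of exactly 500 bp (n = 4178), the narrowest the rule admits, and stretches of 450 bp (n = 4354), just outside it, were close: at 2C, H3K4me3 covered 54.0% and 50.5% of the former and 52.1% and 48.4% of the latter, and at BL, H3K27me3 covered 76.2% and 76.4% against 74.4% and 75.4%.

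The 3 longest regions each followed a different course in the repressive marks (positions on ARS-UCD1.2). The longest, chr11:61543301-61550900 (7.6 kb), kept H3K4me3 over 92.1% to 100% of its bases in every cleavage library, 69.1% and 63.8% at MO and 34.9% to 44.7% in the blastocyst groups. H3K27me3 was at 0 in cleavage, covered 0% and 51.3% at MO, and covered 88.2% to 100% afterwards. H3K27ac covered 100% in both libraries at 8C and 0% in both of TE, ATAC covered 62.5% to 92.8%, and H3K9me3 appeared only from BL on, at 17.1% to 88.2%. It is also the longest of 1179 regions (2.95%, windows 0.127%) that were marked by both ATAC and H3K27me3 in BL, ICM and TE. The next, chr2:5467001-5474500 (7.5 kb), kept H3K4me3 over 94.7% to 100% in cleavage and 0% to 7.33% from MO on, while H3K27me3 went from 0 in cleavage to 64.0% to 100% from MO on. No H3K9me3 peak touched it in any library. The third, chr3:120174301-120181700 (7.4 kb), held H3K4me3 over 83.1% to 100% in cleavage and at no base from MO on. H3K27me3 covered 28.4% to 100% of it in cleavage and all of it from MO on, and H3K9me3 covered all of it in every library from 4C on. It is the longest of 24767 regions (62.1%, windows 6.11%) with no H3K4me3 from MO on and H3K27me3 marked in BL, ICM and TE. It was chosen by length and not as typical: H3K9me3 marked 19.1% of all regions at 4C (windows 5.39%).

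Other courses are shown by the longest region of each. Both marks were called in all groups at chr27:6219451-6226100 (6.65 kb), the longest of the 22 such regions. Every assay covered at least 96.2% of its bases in every library, ATAC and H3K9me3 included. Coverage there was therefore not particular to these marks. H3K4me3 persisted without any H3K27me3 after the oocyte at chr24:34191201-34195300 (4.1 kb), one of 293 such regions (0.734%, windows 0.436%). H3K27ac covered 7.32% and 0% of it at GV and 92.7% to 100% from 8C on, ATAC covered 96.3% to 100%, and H3K9me3 was at 0 in all libraries. H3K27me3 persisted without any H3K4me3 at chr15:74383601-74386250 (2.65 kb), one of 277 (0.694%, windows 0.106%), where H3K9me3 covered 100% in every cleavage library and no ATAC peak was found. Neither mark appeared again at chr11:80803851-80805350 (1.5 kb), one of 448 (1.12%, windows 70.7%), where no ATAC or H3K9me3 peak was found either. H3K27me3 was absent in cleavage and then shared the region with H3K4me3 at chr18:1299451-1304300 (4.85 kb), one of 523 (1.31%, windows 0.0663%). There H3K27me3 covered 100% of the bases from MO on and H3K4me3 52.6% to 66.0% in the blastocyst groups.

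A pair of classes was picked because H3K27me3 differed between the lineages, so that difference is not a result. At chr12:32083301-32086400 (3.1 kb), the longest of 51 regions (0.128%, windows 0.0138%) with both marks in ICM and no H3K27me3 in TE, H3K27me3 covered 100% in both ICM libraries and 0% in both TE libraries, and 100% and 0% in the BL libraries. H3K4me3 covered 100% in all 6 of these libraries, and H3K27ac covered 71.0% and 80.6% in ICM and 100% in both TE libraries. The reverse class held 139 regions (0.348%, windows 0.0273%). At its longest, chr6:69724351-69727950 (3.6 kb), H3K27me3 covered 0% in both ICM libraries and 100% and 95.8% in TE, while H3K27ac covered 100% in both ICM libraries and 0% in both TE libraries. ATAC covered 93.1% to 100% of it in ICM and 86.1% to 91.7% in TE. These classes were defined by H3K27me3 in both lineages and by H3K4me3 in the lineage with both marks. The H3K27ac and ATAC values were not part of the choice, nor was H3K4me3 in the other lineage or at BL.

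**Figure D5:**
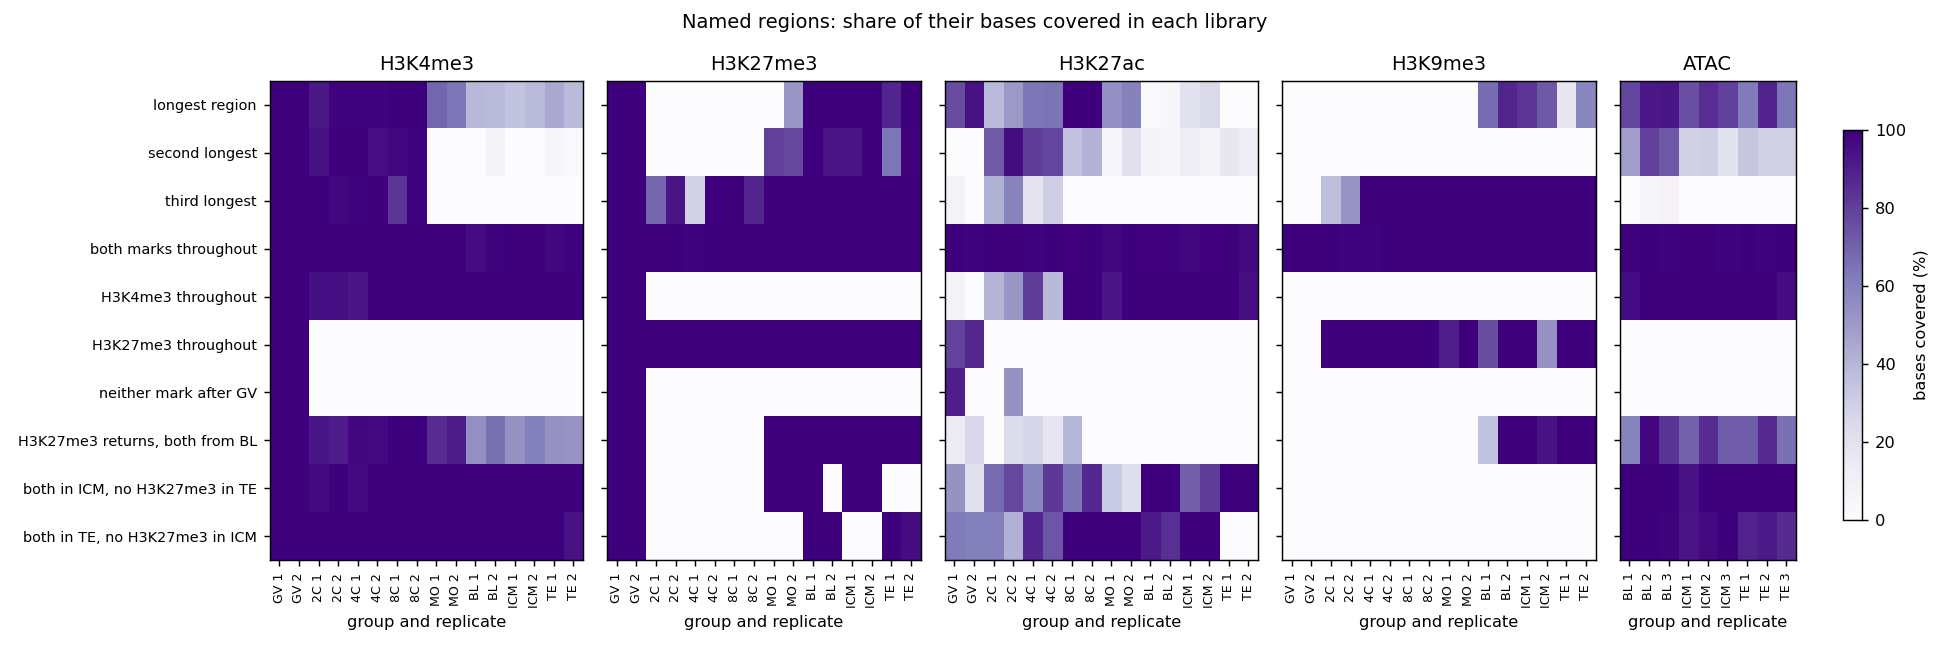
Share of bases under peaks (%, colour) in each library for the 3 longest regions and the longest region of 7 further classes; rows are regions, columns are libraries by group and replicate number, and panels are assays. The row with both marks throughout is dark in every panel, and the last row shows H3K27ac at 100% in both ICM libraries and 0% in both TE libraries.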

How the data were processed

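The deposited files are 81 peak lists, 1 per library, of which 72 are CUT&Tag and 9 ATAC-seq. Coordinates are on the ARS-UCD1.2 cattle build. Per the submitters' processing notes, reads passed through SICER (no version), SAMtools 1.9, Picard 2.26.10, the BWA aligner 0.7.9a, and trimming by cutadapt 1.8.3 under Trim Galore 0.4.0, listed there without order. The lists are named for epic2. Settings of the caller, and any control, were not given in the sources used here. Each peak in the deposited lists also has a whole-number score of unstated meaning, used here only to order peaks within a list when lists were trimmed. Wide peaks, and lists from deeper libraries, cover more bases, and depth is not in the lists.

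Computed here with pandas 2.3.3 and NumPy 2.4.6 under Python 3.11.15 were the covered bases of each region in each list, with interval code and tests that were tested on simulated data. A region was marked if peaks took up 50% or more of its bases in every library of a group, and unmarked where it was so in no library. Windows were all autosomal 1 kb windows under the same rule. Single-mark stretches were at least 500 bp, covered in both oocyte libraries of that mark and in neither of the other, and counts of marked H3K27me3 stretches used pieces of up to 1 kb. Differences between groups used permutation tests over libraries with Benjamini-Hochberg adjustment. Groups came from the sample titles. Named regions were the longest overall and the longest of fixed classes. The regions, classes and tests were chosen with earlier results of these data known. As an alternative, lists were trimmed to a common covered length within each assay. Further alternatives were a minimum of 1000 bp, oocyte H3K4me3 peaks under 1200 bp apart joined, and each replicate left out. Any covered base, or at least 1 library, was also used as the rule for marked. Gene lists planned for the annotation of this build were not analysed here.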

Additional observations from a re-analysis of the deposited data

Results flagged for a closer look

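The difference between the regions and the single-mark stretches changed sign between neighbouring stages in every library in 5 steps, none of which was tested. For H3K4me3, the regions minus stretches with only H3K4me3 in the oocyte had a mean of 7.45 points at 8C and -17.6 points at MO. For H3K27me3, the regions minus stretches with only H3K27me3 had a mean of -2.83 points at 2C and 7.88 points at 4C. For H3K27ac, the regions minus stretches with only H3K4me3 had a mean of -49.8 points in the oocyte, 0.869 points at 2C and -4.60 points at 4C. For H3K9me3, the regions minus stretches with only H3K27me3 had a mean of -9.24 points in the oocyte and 2.65 points at 2C. Each mean is over 2 libraries.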

How the results depend on the processing

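The order of the marks held in all alternatives run: H3K4me3 coverage was above that of H3K27me3 in cleavage and below it later. Depth was unknown, and shares of regions marked moved with list length. A minimum of 1000 bp left 13827 regions, joining oocyte H3K4me3 peaks gave 23413, and leaving out an oocyte library gave 43415 to 53818.

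In trimmed lists, H3K4me3 marked 18.99% at 2C, 18.7% at 4C and 13.6% at 8C, H3K27me3 45.8% at BL, 44.7% in ICM and 45.3% in TE, H3K27ac 5.21% at 8C, 2.57% at MO and 1.99% in ICM, and H3K9me3 10.1% at 4C and 11.1% at 8C. Counting regions marked in at least 1 library gave H3K4me3 63.7% at 8C, H3K27me3 26.1% at 2C, H3K9me3 1.81% at GV and 14.8% at 2C, and ATAC 23.8% at BL, 17.0% in ICM and 17.1% in TE. It gave H3K27ac 23.4% at GV, 45.9% at 2C, 27.6% at 4C, 16.5% at 8C, 10.3% at MO and 7.20% in ICM. Any covered base gave H3K27ac 16.8% at GV, 22.8% at 4C and 5.04% in TE, and ATAC 19.5% at BL, 16.4% in ICM and 15.4% in TE. With joined peaks H3K27ac marked 12.4% at 2C.

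The ATAC difference between groups in covered percent had an adjusted exact permutation p of 0.0214 in trimmed lists and 0.0357 to 0.221 with a library left out. The H3K27ac difference from stretches with only H3K4me3 in cleavage was -7.84 points (adjusted exact permutation p = 0.0331) at 1000 bp or more. That of H3K4me3 was 6.87 points (adjusted exact permutation p = 0.0703) in trimmed lists. The cause of these changes was not tested.

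With a library left out, the marked share ran from 25.0% to 61.8% for H3K4me3 at 8C, and for H3K27ac from 7.74% to 18.7% at GV, 12.9% to 35.8% at 2C and 7.84% to 20.5% at 4C. Leaving out a cleavage library leaves 5, too few for an exact test to pass. Over all settings with a library left out, oocyte libraries included, cleavage differences from stretches with only H3K4me3 ran from 7.54 to 12.2 points for H3K4me3, 18.3 to 20.6 for H3K27me3 and 14.5 to 17.1 for H3K9me3. Those from stretches with only H3K27me3 ran from 46.992 to 65.1 points for H3K4me3, 14.8 to 21.8 for H3K27ac and 6.62 to 9.76 for H3K9me3.

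Replicate numbers did not pair libraries: deviations of same-numbered libraries correlated by -0.15 to 0.0466 over group pairs of a mark. With a replicate block, all 12 tests between stages and marks kept their call, with adjusted permutation p-values of 0.00102 for H3K4me3, 0.00146 for H3K27me3, 0.0008 for H3K27ac, 0.000875 for H3K9me3 and 0.111 for ATAC between stages in covered percent.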
